A study of Homo sapiens with 24 samples.

Results

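The integrated stress response regulators described here were 10 genes, namely ATF4, DDIT3, ATF3, CEBPB, NUPR1, PPP1R15A, TRIB3, CHAC1, SESN2 and DDIT4. They were taken by name from the 60675 genes of the expected-count table, and each of the 10 matched 1 Ensembl identifier. RNA was sequenced from SW1783, a human astrocytoma cell line, after 24 h with a vehicle or with an extract of Schisandrae Fructus, the dried fruit of Schisandra. In batch A, 3 libraries each were made from cells given vehicle A (0.1% DMSO) or WESF, the hot water extract, at 20 (low), 100 (medium) or 500 µg/mL (high). In batch B, 3 libraries each were made from cells given vehicle B (0.1% DMSO) or EESF, the ethanol extract, at 12.4 (low), 62 (medium) or 310 µg/mL (high). The methods state that the high WESF dose was not toxic in a preliminary screen, whereas the high EESF dose was chosen at a partly cytotoxic level. Because each extract was run in its own batch, extract and batch cannot be told apart, and the doses of the extracts differ at every step. Nothing in the labels says that the 3 libraries of a group came from separate cultures, so p-values measure the spread between these libraries, which may be technical.

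The integrated stress response is the pathway by which a cell slows general protein synthesis when the kinases HRI, PKR, PERK or GCN2 phosphorylate the translation factor eIF2alpha. Under this block the ATF4 mRNA is translated more efficiently, and the ATF4 protein then activates genes of amino acid supply, redox balance and, if stress persists, cell death. ATF4 is therefore regulated largely at translation, which counts of RNA do not measure. In astrocytes and astrocytoma cells the pathway responds to shortage of amino acids, to misfolded protein in the endoplasmic reticulum and to mitochondrial damage.

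The library totals ranged from 18727797 to 32567395 expected counts. Vehicle B was the shallowest group (18727797 to 20465712) and high-dose EESF the deepest (29659110 to 32567395). Markers of the labelled cell type were mixed. VIM (mean of 4872 CPM over the vehicle libraries, CPM being counts scaled to the effective size of the library), CD44 (2866 CPM) and SOX9 (83.9 CPM) were expressed, but GFAP, S100B, AQP4 and ALDH1L1 did not exceed 0.339, 0.174, 0.0512 and 0.145 CPM in any library. The summed level of the 9 astrocyte and astrocytoma markers, of which VIM was the most abundant, was 7698 to 7842 CPM in vehicle A, 6486 to 6728 CPM in high-dose WESF, 7836 to 8011 CPM in vehicle B and 7270 to 7516 CPM in high-dose EESF. VIM carried most of that sum, at 4780 to 4876 CPM in vehicle A, 4713 to 4910 in high-dose WESF, 4912 to 4942 in vehicle B and 5058 to 5406 CPM in high-dose EESF. GFAP, though near 0, was at 0.109 to 0.221, 0.219 to 0.339, 0 to 0.0558 and 0.266 to 0.32 CPM in the same order, so that VIM and GFAP in high-dose EESF lay above vehicle B. CD44 was at 2707 to 2912 CPM in vehicle A, 1705 to 1754 in high-dose WESF, 2776 to 2969 in vehicle B and 2039 to 2149 CPM in high-dose EESF, and SOX9 at 76.6 to 84.7, 50 to 51.4, 78.8 to 91.9 and 45.1 to 50.5 CPM in the same order. The glutamate transporter gene SLC1A3 was at 30.6 to 33.7, 9.64 to 10.8, 30.7 to 32.8 and 11.2 to 12.9 CPM, and NES, which encodes nestin, at 6.64 to 8.26, 2.63 to 4.09, 5.83 to 7.54 and 4.65 to 5.27 CPM. For these 4 markers the high-dose libraries lay below every vehicle library of their batch.

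Summed markers of other cell types also differed at the high doses. The 3 neuronal markers summed to 51.4 to 55.5 CPM in vehicle A and 21.9 to 24.2 CPM in high-dose WESF, and to 55.5 to 57.1 CPM in vehicle B and 23.9 to 28.8 CPM in high-dose EESF. SNAP25 was the most abundant of them in the vehicle libraries (mean of 28.5 CPM, with SYT1 at 26.1), whereas RBFOX3, at a low level, was higher at the high doses, at 0.0723 to 0.147 CPM in vehicle A, 0.526 to 0.838 CPM in high-dose WESF, 0.0558 to 0.205 CPM in vehicle B and 0.353 to 0.671 CPM in high-dose EESF. The 3 epithelial markers, almost all KRT18, summed to 119 to 133 CPM in vehicle A and 44.4 to 49.3 CPM in high-dose WESF, and to 110 to 120 CPM in vehicle B and 61.9 to 80.2 CPM in high-dose EESF, while EPCAM and CDH1 stayed at or below 0.166 and 0.0997 CPM. The 3 oligodendrocyte markers, mostly MBP, summed to 6.73 to 7.67 CPM in vehicle A and 11.3 to 14.1 CPM in high-dose WESF, and to 6.55 to 7.32 CPM in vehicle B and 9.65 to 10.2 CPM in high-dose EESF, with MOG at 0 in every library. The 3 immune markers, mostly CD68, summed to 186 to 197 CPM in vehicle A and 207 to 238 CPM in high-dose WESF, and to 198 to 222 CPM in vehicle B and 267 to 275 CPM in high-dose EESF, with CD3E at or below 0.0339 CPM. PTPRC (CD45), the remaining immune marker, went the other way, from 9.47 to 10.7 CPM in vehicle A to between 1.97 and 2.32 CPM in high-dose WESF, and from 8.87 to 10.4 CPM in vehicle B to between 1.5 and 2.14 CPM in high-dose EESF. The 3 endothelial markers, mostly PECAM1, summed to at most 1.55 CPM in any library. The part of these shifts in the results for the 10 regulators was not tested, and in such bulk RNA fewer cells of a kind and less RNA per cell cannot be told apart.

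Promoter sequence was examined for letters that factors of the pathway are known to bind, since ATF4 acts on its targets through such elements. RefSeq windows (GRCh38.p14, from 250 bases before to 50 bases after a transcription start) were given for 9 of the 10 regulators, 15 windows in all, and NUPR1 had none. The windows were searched on both strands for 3 patterns, and no match overlapped a match of another pattern. They were the CARE (TGATGNAA), at which ATF4 and C/EBP proteins bind together, the CRE (TGACGTCA), bound by the CREB and ATF family, and the ERSE, bound by ATF6 with NF-Y. The 3 regulators with a match are given here as the 30 bases around it, the matched letters in capitals and each read on the plus strand, which is the strand of the gene.
ATF3, CARE, chr1:212565205-212565234: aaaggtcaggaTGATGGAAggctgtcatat
CHAC1, CARE on the opposite strand, chr15:40953251-40953280: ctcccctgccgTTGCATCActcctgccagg
PPP1R15A, CRE, chr19:48872352-48872381: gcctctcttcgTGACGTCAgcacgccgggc
The ATF3 match lay at -191 to -184 from the start of its window's transcript, the CHAC1 match at -209 to -202 and the PPP1R15A match at -58 to -51. By GENCODE 44 the CHAC1 and PPP1R15A matches lie wholly within exons of other transcripts of the same genes, all 250 bases before the start of the CHAC1 window and 209 of those of PPP1R15A being exonic, whereas the ATF3 match lies in no exon. The CARE letters occurred in 3.62% of all 35116 windows, the CRE letters in 1.85% and the ERSE letters in 0.0769%. Counted by gene, as the regulators are here, the shares were 4.46%, 2.25% and 0.0916% of 27305 genes. No window of a regulator held the ERSE letters. A match is a run of letters, not a measured binding site, and regulators without one may carry other letters or elements outside the window.

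In vehicle-treated cells the regulators spanned a wide range of abundance. Divided by the length of the canonical transcript, the mean level in vehicle A was 99.5 CPM per kb for ATF4, the highest of the 10. DDIT4 (37.5), PPP1R15A (34), CEBPB (26.4) and DDIT3 (25.2 CPM per kb) followed, then TRIB3 (11), SESN2 (7.38) and CHAC1 (4.22 CPM per kb). NUPR1 (1.57) and ATF3 (1.5 CPM per kb) were the least abundant on this scale. In that order CEBPB and DDIT3 overlapped between libraries (25.2 to 27.2 and 22.5 to 26.8 CPM per kb), as did NUPR1 and ATF3 (1.49 to 1.65 and 1.49 to 1.51), and every other pair of neighbours was separated. The length used for NUPR1, 5291 bases, was the longest of the 10. Lengths (GENCODE 44) and counts (Ensembl release 84) come from different annotations. Without division by length NUPR1 (8.28 CPM in vehicle A) lay above CHAC1 (6.42) and ATF3 (2.91 CPM), so its place depends on that length.

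All 10 regulators rose with high-dose WESF. In each of the 10 the 3 treated libraries lay above the 3 vehicle libraries, which held for 35.9% of the 13129 protein-coding genes tested, and each had an edgeR adjusted p under 0.05 as higher, as 34.3% of genes did. By the study's rule for differentially expressed genes (DEGs), an adjusted p under 0.05 with a fold change above 1.5, 7 of the 10 were higher DEGs against a background of 11.1%. The median log2 fold change of the 10 was 1.18, and that of all genes tested was 0.00. The order of abundance changed with it. DDIT4 reached 141 CPM per kb, near ATF4 at 166, and TRIB3 (39.5) came level with DDIT3 and PPP1R15A (both 38.8 CPM per kb), with overlapping libraries.

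**Figure D1:**
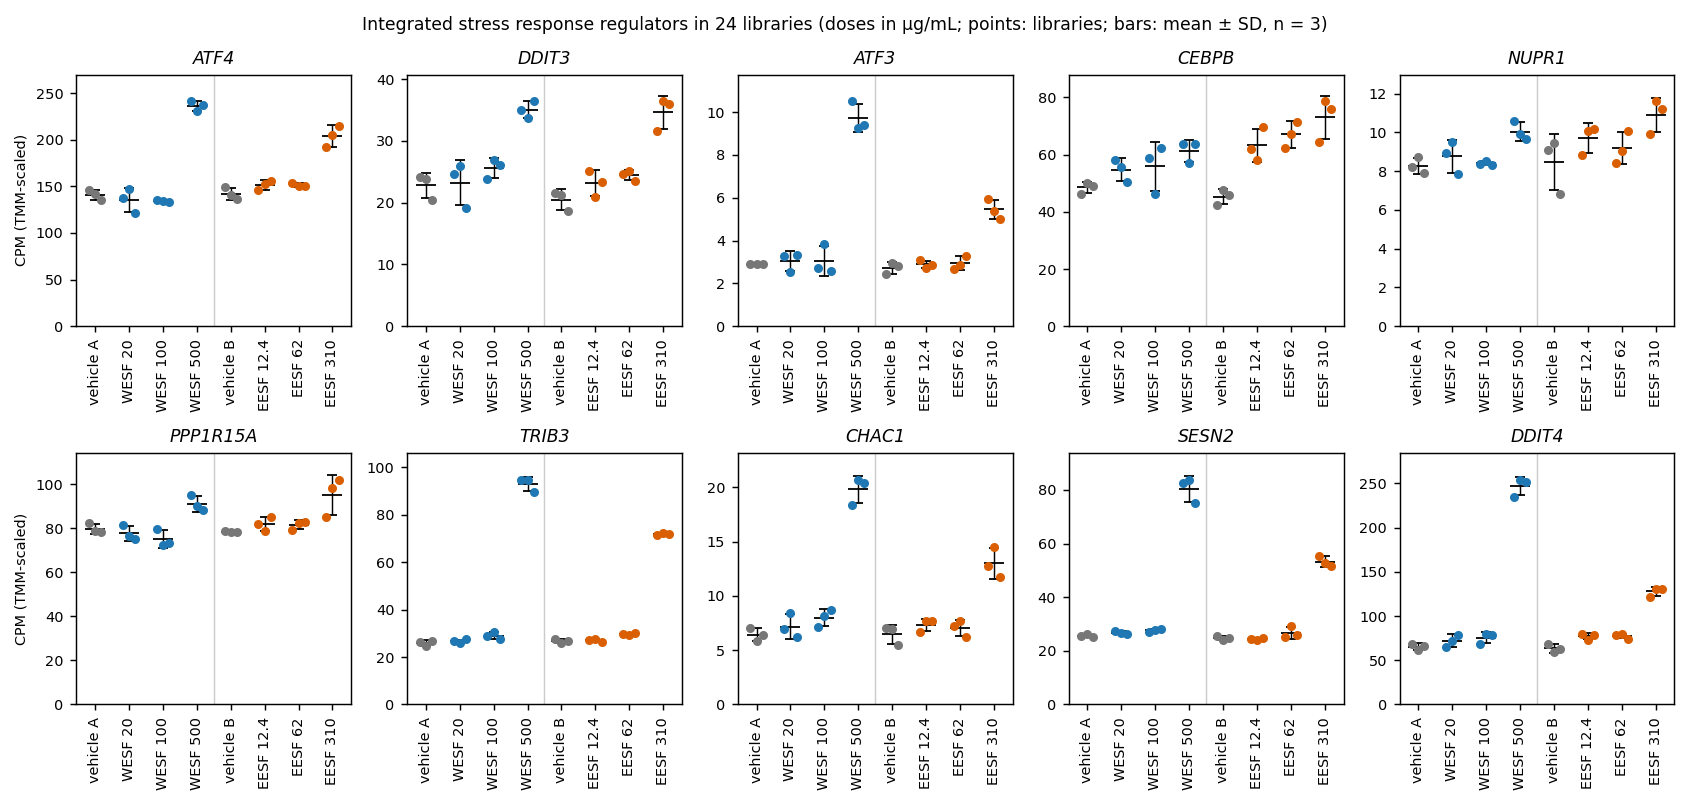
Normalized level (CPM, linear axis from 0) of each of the 10 regulators in the 24 libraries, by group, with points for libraries and bars for mean ± SD (n = 3). The high-dose libraries of each extract lay above their own vehicle in all 10 panels, and DDIT4 stood at 235 to 254 CPM in high-dose WESF against 122 to 131 CPM in high-dose EESF.

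Of the effector and feedback genes, DDIT4, TRIB3, SESN2 and CHAC1 rose 3.08-fold to 3.76-fold with high-dose WESF and PPP1R15A rose 1.14-fold. DDIT4 (ENSG00000168209, chr10:72273919-72276036, plus strand), which encodes REDD1, a brake on the growth kinase complex mTORC1, was at 68.9, 61.4 and 66.1 CPM in vehicle A and at 235, 254 and 251 CPM in high-dose WESF. Its log2 fold change was 1.91 ± 0.051 (SE, edgeR adjusted p = 1.69e-14), a 3.76-fold rise and rank 99 of 13129 genes ordered by rise. TRIB3 (ENSG00000101255, chr20:362835-397559, plus strand), a pseudokinase that ATF4 induces and that in turn restrains it, was at 26.5, 24.6 and 26.8 CPM in vehicle A and at 94.7, 94.7 and 89.7 CPM in high-dose WESF. TRIB3 rose by a log2 fold change of 1.84 ± 0.051 (SE, edgeR adjusted p = 2.43e-14). For both genes the gap between the groups was far wider than the spread within either group.

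SESN2 (ENSG00000130766, chr1:28259518-28282491, plus strand), sestrin 2, a leucine sensor that also holds back mTORC1, was at 25.4, 26.1 and 25.1 CPM in vehicle A and at 82.5, 83.8 and 75 CPM in high-dose WESF. The log2 fold change of SESN2 was 1.65 ± 0.054 (SE, edgeR adjusted p = 1.41e-13). CHAC1 (ENSG00000128965, chr15:40952962-40956512, plus strand), the glutathione-degrading enzyme whose window carries CARE letters inside an annotated exon, was at 7, 5.82 and 6.43 CPM in vehicle A and at 18.4, 20.7 and 20.4 CPM in high-dose WESF. This was a log2 fold change of 1.62 ± 0.085 (SE, edgeR adjusted p = 4.15e-11). PPP1R15A (ENSG00000087074, chr19:48872212-48876059, plus strand) encodes GADD34, the phosphatase subunit that removes the phosphate from eIF2alpha and ends the response, and it changed least of the effectors. It was at 82.4, 78.7 and 78.4 CPM in vehicle A and at 95.1, 89.9 and 88.3 CPM in high-dose WESF, a log2 fold change of 0.19 ± 0.046 (SE, edgeR adjusted p = 0.00143). The PPP1R15A groups did not overlap, but the rise was 1.14-fold and below the DEG threshold.

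Among the transcription factors, ATF3 rose most with WESF. ATF3 (ENSG00000162772, chr1:212565334-212620777, plus strand), a stress-inducible factor with the CARE match upstream of its annotated exons, was at 2.91, 2.89 and 2.92 CPM in vehicle A and at 10.5, 9.26 and 9.42 CPM in high-dose WESF. The log2 fold change of ATF3 was 1.74 ± 0.11 (SE, edgeR adjusted p = 4.15e-10). Its counts ran from 47 to 249 per library, the lowest of the 10. ATF4 itself (ENSG00000128272, chr22:39519695-39522683, plus strand), the master factor of the response, was at 146, 142 and 135 CPM in vehicle A and at 241, 231 and 237 CPM in high-dose WESF, a log2 fold change of 0.74 ± 0.044 (SE, edgeR adjusted p = 1.95e-10). The ATF4 mRNA changed 1.67-fold where DDIT4, TRIB3, ATF3, SESN2 and CHAC1 changed 3.08-fold to 3.76-fold.

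DDIT3 (ENSG00000175197, chr12:57516588-57521737, minus strand) encodes CHOP, the factor tied to cell death after prolonged stress. It was at 24.2, 23.8 and 20.4 CPM in vehicle A and at 35.1, 33.7 and 36.4 CPM in high-dose WESF, a log2 fold change of 0.62 ± 0.066 (SE, edgeR adjusted p = 2.69e-07). Without vehicle A replicate 3 the DDIT3 value was 0.55, below the DEG threshold, and 6 of the 10 were DEGs. CEBPB (ENSG00000172216, chr20:50190830-50192668, plus strand), a partner of ATF4 and CHOP on DNA, was at 46.4, 50.1 and 49.2 CPM in vehicle A and at 63.7, 57 and 63.6 CPM in high-dose WESF. Its log2 fold change of 0.34 ± 0.054 (SE, edgeR adjusted p = 3.01e-05) fell short of the DEG threshold. NUPR1 (ENSG00000176046, chr16:28532708-28539008, minus strand), a small chromatin protein induced by stress, was at 8.22, 8.72 and 7.91 CPM in vehicle A and at 10.6, 9.91 and 9.64 CPM in high-dose WESF, with a log2 fold change of 0.28 ± 0.086 (SE, edgeR adjusted p = 0.00883). The call for NUPR1 was lost without high-dose WESF replicate 1 (adjusted p = 0.0511). DDIT3 shares its locus with MARS1 and MBD6 on the other strand and with a readthrough gene on its own, and its expected counts were not whole in 24 of 24 libraries, those of CEBPB in 23 and those of ATF4 in 18. Reads at these genes were therefore divided with other genes, and their levels are uncertain to that extent. CEBPB also overlaps the antisense gene CEBPB-AS1, and NUPR1 a long noncoding RNA on its own strand, and the strand setting of the counting is not given in the sources used here.

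With high-dose EESF all 10 regulators were higher as well. In each of the 10 the treated libraries lay above vehicle B, as for 31.6% of the 13092 genes tested. The 10 of 10 with an adjusted p under 0.05 as higher compare with 29.3% of genes, and the 7 higher DEGs with 8.21%. The median log2 fold change of the 10 was 0.88, against 0.01 for all genes tested. The DEGs were DDIT3, ATF3, CEBPB, TRIB3, CHAC1, SESN2 and DDIT4. ATF4 was a DEG with WESF and not with EESF, and CEBPB the reverse.

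TRIB3 led the rise with EESF. It was at 27.7, 25.9 and 26.9 CPM in vehicle B and at 71.3, 72.2 and 71.8 CPM in high-dose EESF, a log2 fold change of 1.42 ± 0.056 (SE, edgeR adjusted p = 4.11e-09) and rank 147 of 13092 genes. SESN2 went from 25.7, 23.9 and 24.7 CPM to 55.5, 52.6 and 51.6 CPM, a log2 fold change of 1.10 ± 0.06 (SE, edgeR adjusted p = 4.96e-08). DDIT4 went from 68.4, 58.8 and 62.7 CPM to 122, 131 and 131 CPM, a log2 fold change of 1.02 ± 0.063 (SE, edgeR adjusted p = 1.11e-07). In all 3 genes the groups were widely separated, with treated libraries in a narrow band. CHAC1 was at 7.01, 6.96 and 5.47 CPM in vehicle B and at 12.8, 14.5 and 11.7 CPM in high-dose EESF, a log2 fold change of 1.00 ± 0.11 (SE, edgeR adjusted p = 1.35e-05). ATF3 was at 2.42, 2.97 and 2.79 CPM in vehicle B and at 5.94, 5.4 and 5.02 CPM in high-dose EESF, with the same log2 fold change of 1.00 ± 0.13 (SE, edgeR adjusted p = 4.95e-05).

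DDIT3 and CEBPB came next among the EESF changes. DDIT3 was at 21.6, 21.3 and 18.6 CPM in vehicle B and at 31.6, 36.4 and 36 CPM in high-dose EESF, a log2 fold change of 0.76 ± 0.078 (SE, edgeR adjusted p = 6.03e-06). CEBPB was at 42.5, 47.6 and 45.8 CPM in vehicle B and at 64.6, 78.6 and 75.9 CPM in high-dose EESF, a log2 fold change of 0.69 ± 0.078 (SE, edgeR adjusted p = 1.20e-05). Replicate 1 of high-dose EESF was the lowest treated library for both, yet above every vehicle library. ATF4 was at 149, 141 and 136 CPM in vehicle B and at 192, 205 and 215 CPM in high-dose EESF, a log2 fold change of 0.52 ± 0.057 (SE, edgeR adjusted p = 9.20e-06).

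The remaining changes with EESF were small. PPP1R15A was at 78.8, 78.1 and 78.5 CPM in vehicle B and at 85, 98.4 and 102 CPM in high-dose EESF, a log2 fold change of 0.28 ± 0.068 (SE, edgeR adjusted p = 0.00362). NUPR1 was at 9.12, 9.46 and 6.81 CPM in vehicle B and at 9.93, 11.6 and 11.2 CPM in high-dose EESF, a log2 fold change of 0.36 ± 0.12 (SE, edgeR adjusted p = 0.0179). Replicate 3 of vehicle B was low for NUPR1, and the call was lost without vehicle B replicate 3 (adjusted p = 0.0878) or without high-dose EESF replicate 2 (adjusted p = 0.0766).

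The next question was whether the extracts moved the regulators by different amounts. The change with high-dose EESF against vehicle B was set against the change with high-dose WESF against vehicle A in one interaction test over 12 libraries. Of the 10 regulators, 7 had an adjusted p under 0.05 against a background of 26% of 13376 genes. For 6 of them the rise was smaller with EESF (background 13.3% as lower) and for 1, CEBPB, it was larger (12.7% as higher). By the fold rule as well, 3 differed and all were lower with EESF (background 1.75%), namely DDIT4, ATF3 and CHAC1. CHAC1 fell short of the fold rule with libraries thinned to the smallest total (-0.54 on the log2 scale) and without vehicle A replicate 2 (-0.56), vehicle B replicate 1 or 2 (both -0.57) or high-dose EESF replicate 3 (-0.55), which left 2, and SESN2 met it without high-dose WESF replicate 3 (-0.60), which gave 4. The doses compared were 500 and 310 µg/mL, and the difference between extracts and that between batches cannot be told apart.

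**Figure D2:**
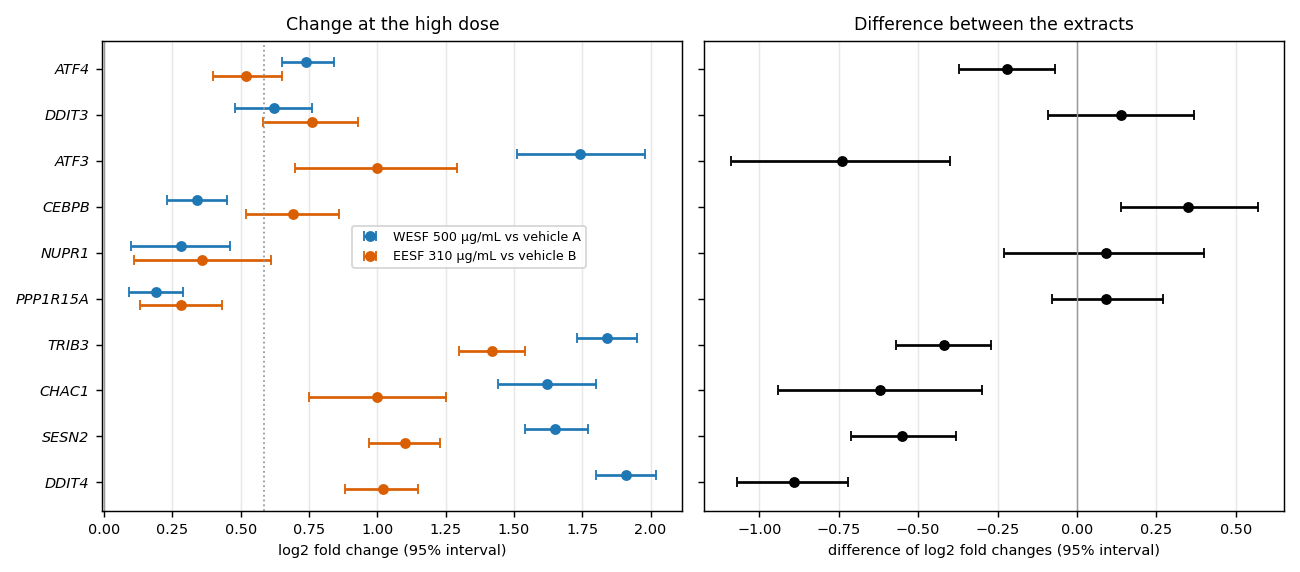
Left, log2 fold change of each regulator at the high dose against the vehicle of its batch, for WESF (blue) and EESF (orange), with 95% intervals and a dotted line at the 1.5-fold DEG threshold. Right, the EESF change less the WESF change, with 95% intervals, where DDIT4, ATF3, CHAC1, SESN2, TRIB3 and ATF4 lie below 0, CEBPB lies above 0 and the intervals of DDIT3, PPP1R15A and NUPR1 span 0.

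The gap was widest for DDIT4, whose log2 change was lower with EESF by a difference of -0.89 ± 0.082 (SE, edgeR adjusted p = 9.49e-06). The EESF rise in DDIT4 was thus 0.539 times the WESF rise as a ratio of folds. ATF3 followed at -0.74 ± 0.17 (SE, edgeR adjusted p = 0.00422), CHAC1 at -0.62 ± 0.15 (SE, edgeR adjusted p = 0.00736) and SESN2 at -0.55 ± 0.078 (SE, edgeR adjusted p = 0.00023). TRIB3 kept more of its rise, with a difference of -0.42 ± 0.069 (SE, edgeR adjusted p = 0.000647). In these 5 genes every high-dose EESF library lay below every high-dose WESF library, while the vehicle libraries of the batches overlapped. ATF4 had a small difference of -0.22 ± 0.07 (SE, edgeR adjusted p = 0.0325), and this call was lost under 9 of 19 alternatives.

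CEBPB went the other way, with a difference of 0.35 ± 0.10 (SE, edgeR adjusted p = 0.018). The call for CEBPB was lost without high-dose WESF replicate 2 (adjusted p = 0.0557) or without high-dose EESF replicate 2 (adjusted p = 0.0537). For the other 3 the test did not separate the extracts. The difference was 0.14 for DDIT3 (95% interval -0.09 to 0.37, edgeR adjusted p = 0.376), 0.09 for PPP1R15A (-0.08 to 0.27, adjusted p = 0.446) and 0.09 for NUPR1 (-0.23 to 0.40, adjusted p = 0.709). These intervals still allow a DDIT3 rise larger with EESF by up to 0.37 on the log2 scale. The vehicles themselves gave no call among the 10 when vehicle B was compared with vehicle A by edgeR, where 0% of 13001 genes passed. None of the 10 was among the 2.85% of genes with an unadjusted p under 0.05 there, and the largest of their values was -0.15 ± 0.083 (SE, log2 scale) for DDIT3.

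Below the high dose no regulator was called with WESF by edgeR with the filter on low counts and all libraries. For 100 µg/mL the count was 1 without that filter and ranged from 0 to 2 with single libraries left out. At 100 µg/mL edgeR called 0 of the 10 (background 1.89% of 13112 genes as higher), DESeq2 also called 0, and 5 had an unadjusted p under 0.05 (background 21%), namely DDIT3, CEBPB, TRIB3, CHAC1 and DDIT4. The median log2 fold change of the 10 was 0.13. The treated libraries lay above vehicle A for 3 of them, TRIB3, CHAC1 and SESN2 (background 12.2%). CHAC1 had the highest value, at 7.17, 8.13 and 8.69 CPM, a log2 fold change of 0.32 ± 0.10 (SE, edgeR adjusted p = 0.0983). At 20 µg/mL edgeR and DESeq2 called 0 of the 10 (background 0% of 13131 genes), and CEBPB alone had an unadjusted p under 0.05 (background 3.58%). Neither dose gave a DEG among the 10 (background 0.0915% and 0% as higher). At 20 µg/mL the treated libraries all lay above vehicle A for 2 regulators, CEBPB and SESN2 (background 4.7%).

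**Figure D3:**
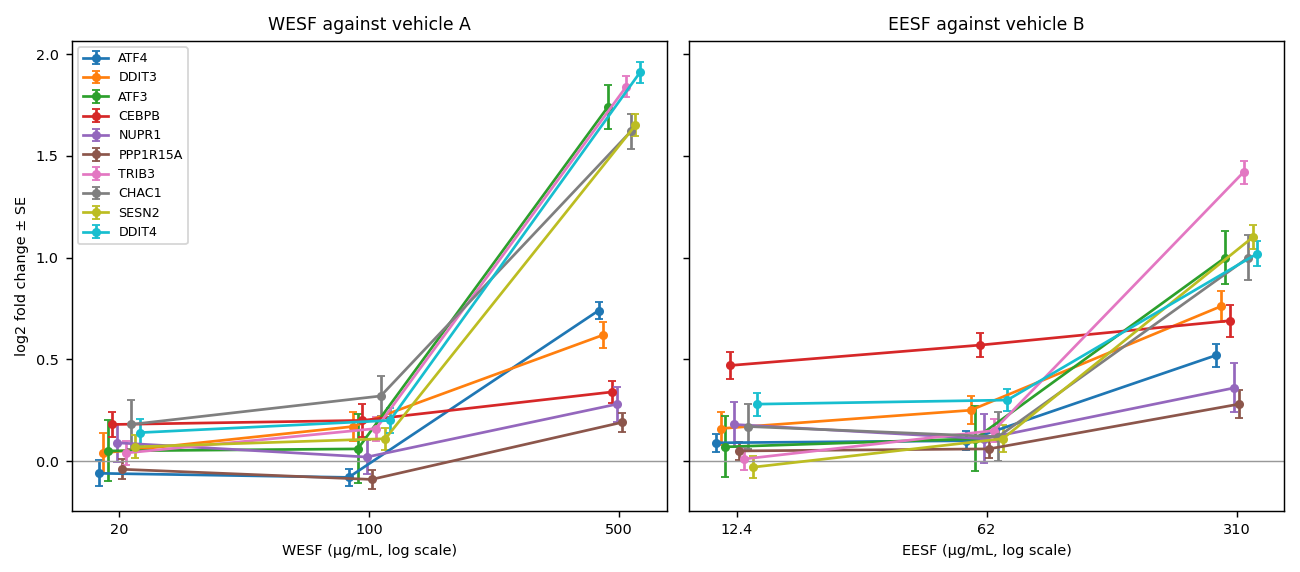
Log2 fold change (± SE) of the 10 regulators against the vehicle of the batch at each dose of WESF (left) and EESF (right), on a logarithmic dose axis with genes set slightly apart at each dose. Most lines stay near 0 at the low and medium doses and rise at the high dose, while CEBPB with EESF stands at 0.47, 0.57 and 0.69.

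At the lower doses of EESF, CEBPB and DDIT4 were called as higher. At 62 µg/mL edgeR called 3 of the 10 as higher (background 6.9% of 12978 genes), CEBPB, DDIT4 and DDIT3, and DESeq2 called 2, and 0 were DEGs by either tool (background 0.47% as higher by edgeR). The count of DEGs was 1 with libraries thinned to the smallest total and ranged from 0 to 1 with single libraries left out. CEBPB was at 62.3, 67.3 and 71.6 CPM, a log2 fold change of 0.57 ± 0.06 (SE, edgeR adjusted p = 0.000141). DDIT4 was at 78.7, 79.4 and 74.4 CPM, a log2 fold change of 0.30 ± 0.056 (SE, edgeR adjusted p = 0.00288). Both genes were above every vehicle B library. DDIT3 was at 24.7, 25.1 and 23.5 CPM, a log2 fold change of 0.25 ± 0.069 (SE, edgeR adjusted p = 0.0217), and this call was lost under 6 of 13 alternatives, with DESeq2 at an adjusted p of 0.0505. In all, 6 of the 10 had every treated library above vehicle B (background 16.6%), the others being ATF4, PPP1R15A and TRIB3.

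At 12.4 µg/mL CEBPB and DDIT4 were called by edgeR as higher (background 3.11% of 12892 genes) and by DESeq2, with 0 DEGs (background 0.155%). CEBPB was at 61.9, 58.2 and 69.7 CPM, a log2 fold change of 0.47 ± 0.066 (SE, edgeR adjusted p = 0.00185). The rank of CEBPB by rise was 176 at the low dose, 153 at the medium and 840 at the high dose of EESF. DDIT4 was at 79.7, 73.4 and 79 CPM, a log2 fold change of 0.28 ± 0.056 (SE, edgeR adjusted p = 0.00975), but without vehicle B replicate 2 its adjusted p was 0.0719, without low-dose EESF replicate 1 it was 0.0579 and without replicate 3 it was 0.0511. The same 2 genes were those with every treated library above vehicle B (background 14.3%). SESN2, CHAC1, ATF3 and TRIB3, which rose with the high dose, had log2 fold changes of -0.03, 0.17, 0.07 and 0.01 here, and none passed.

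The difference between extracts was not called for any regulator below the high dose. At the medium dose edgeR gave 0 of 10 (background 0.203% of 13276 genes), DESeq2 gave 0, and ATF4, CEBPB and PPP1R15A had an unadjusted p under 0.05 (background 13.1%). ATF4 had a difference of 0.17 (95% interval 0.05 to 0.29, edgeR adjusted p = 0.21) and CEBPB one of 0.36 (0.11 to 0.61, adjusted p = 0.204). At the low dose edgeR gave 0 of 10 (background 0.00756% of 13221 genes), DESeq2 gave 0, and CEBPB alone had an unadjusted p under 0.05 (background 10.5%). Its difference was 0.31 (95% interval 0.11 to 0.52, edgeR adjusted p = 0.348).

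Upstream of the regulators at the high dose, GCN1, IMPACT and the kinase HRI rose with both extracts, and the phosphatase subunit PPP1CA fell with both. For the lists that follow, 34.3% of all genes tested were higher and 34.6% lower by adjusted p with high-dose WESF, and 29.3% higher and 28.7% lower with high-dose EESF. Of 13 genes for eIF2alpha kinases, phosphatase subunits and their regulators, 9 were higher, 1 lower and 3 did not pass with high-dose WESF (median log2 fold change 0.21), and 5 were higher, 2 lower and 6 did not pass with EESF (median 0.04). GCN1, which activates the amino acid sensor GCN2, rose most with WESF, by 0.71 ± 0.045 (SE, edgeR adjusted p = 4.74e-10), and by 0.23 ± 0.06 with EESF (SE, edgeR adjusted p = 0.00644). At the lower EESF doses GCN1 lay below vehicle B (189 to 202 CPM), at 164 to 171 CPM (low) and 160 to 178 CPM (medium). The lower WESF doses overlapped vehicle A. The heme-regulated kinase HRI (EIF2AK1) rose with both extracts, by 0.34 and 0.20 on the log2 scale (edgeR adjusted p = 1.24e-06 and 0.0167). PERK (EIF2AK3), the kinase of the endoplasmic reticulum, rose by 0.24 with WESF (edgeR adjusted p = 0.00171) and had a value of -0.17 with EESF (adjusted p = 0.0519), and the difference of -0.41 passed (edgeR adjusted p = 0.00383). GCN2 (EIF2AK4) rose by 0.21 with WESF (edgeR adjusted p = 0.000412) and stood at 0.04 with EESF (adjusted p = 0.548), and PKR (EIF2AK2) passed in neither (0.12 and -0.09, adjusted p = 0.064 and 0.294).

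The phosphatase genes were split. PPP1R15B, the constitutive counterpart of PPP1R15A, rose by 0.50 with WESF (edgeR adjusted p = 5.03e-08) and stood at 0.09 with EESF (adjusted p = 0.26). The catalytic subunit PPP1CA fell by 0.47 on the log2 scale with WESF and by 0.33 with EESF (edgeR adjusted p = 4.88e-08 and 0.000153). Of the 8 subunits of eIF2 and its exchange factor eIF2B, 4 were higher, 1 lower and 3 did not pass with WESF (median 0.11), and 6 were higher, 1 lower and 1 did not pass with EESF (median 0.19). EIF2B2 rose by 0.72 and 0.58 (edgeR adjusted p = 1.05e-09 and 2.63e-06), and EIF2B1 fell by 0.39 and 0.17 (adjusted p = 8.08e-06 and 0.0218). EIF2S2, the beta subunit of eIF2, rose by 0.48 and 0.59 (edgeR adjusted p = 1.34e-07 and 7.18e-06). EIF2B4 stood at -0.03 with WESF (edgeR adjusted p = 0.576) and rose by 0.35 with EESF (adjusted p = 0.000261). IMPACT, an inhibitor of GCN2 activation, rose by 0.48 and 0.34 (edgeR adjusted p = 5.93e-07 and 0.000958).

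**Figure D4:**
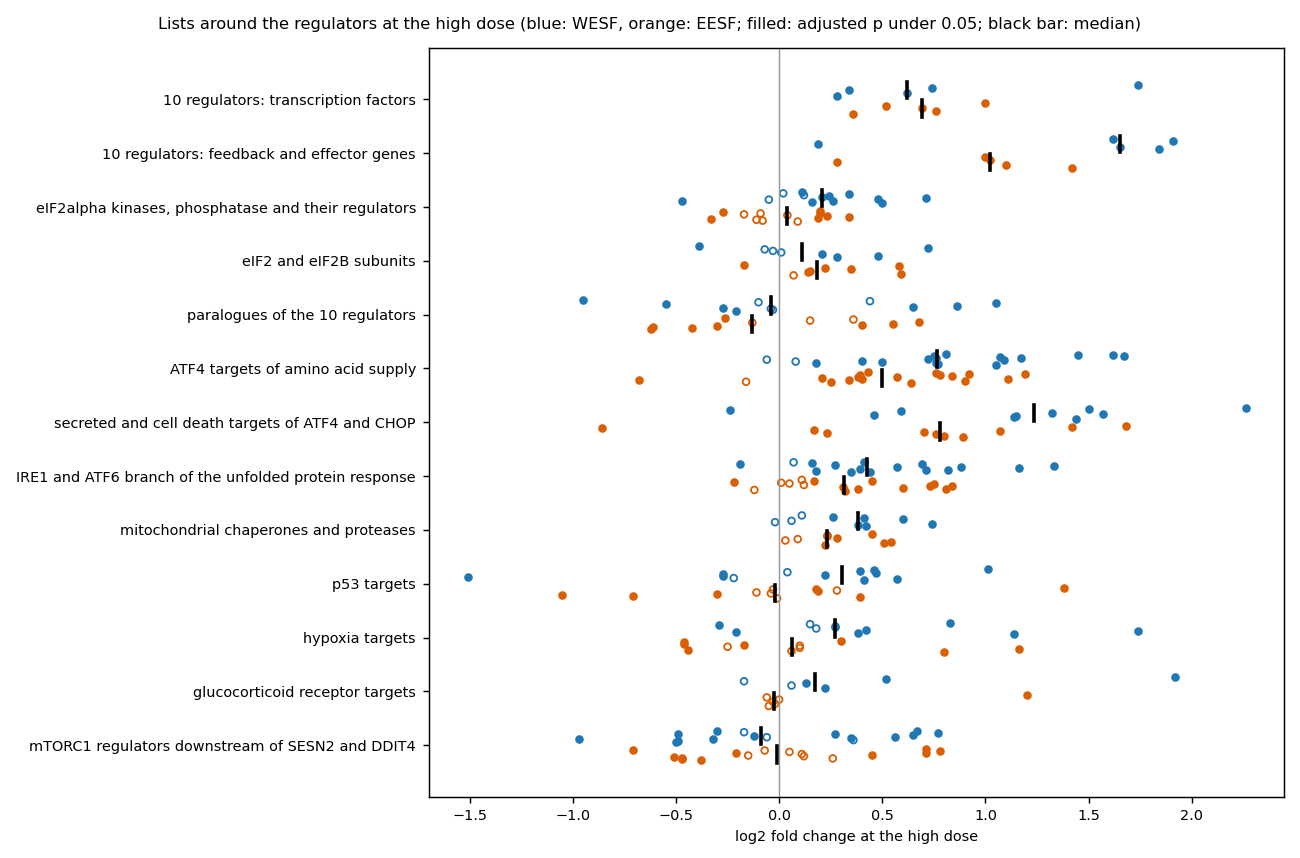
Log2 fold change at the high dose of every tested gene in the 10 regulators and in the 11 lists around them, WESF in blue and EESF in orange, with filled points for an adjusted p under 0.05 and black bars for list medians. The amino acid supply list (medians 0.77 and 0.50) and the secreted and cell death list (medians 1.24 and 0.78) lie farther above 0 than the other 9 lists, and the mTORC1 list is centred near 0 (medians -0.09 and -0.01).

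Downstream, most listed targets of ATF4 and CHOP were higher. Of 18 ATF4 targets of amino acid supply, 16 were higher, 0 lower and 2 did not pass with high-dose WESF by edgeR (median 0.77), and 16 were higher, 1 lower and 1 did not pass with EESF (median 0.50). ASNS, asparagine synthetase, went from 52.2 ± 3.11 to 160 ± 2.63 CPM with WESF (SD, n = 3) and from 51.7 ± 2.26 to 118 ± 2.79 CPM with EESF. CTH, an enzyme that makes cysteine, rose by 1.67 and 0.92 on the log2 scale (edgeR adjusted p = 4.04e-12 and 3.07e-06), and the mitochondrial folate enzyme ALDH1L2 by 1.45 and 0.76 (adjusted p = 7.97e-13 and 1.47e-06). PCK2, mitochondrial PEP carboxykinase, rose by 1.17 and 0.84 (edgeR adjusted p = 4.50e-10 and 3.90e-06). The 1 lower target was SLC38A2, a neutral amino acid transporter named here after its values were seen, which stood at 0.08 with WESF (edgeR adjusted p = 0.165) and fell by 0.68 with EESF (adjusted p = 1.15e-05). In the interaction test 11 of the 18 were lower with EESF, 0 higher and 7 did not pass (background 13.3% as lower and 12.7% as higher), with a median difference of -0.34 against 0.02 for all genes. Of the other lists, the share lower was 80% for secreted and cell death targets, 63.6% for hypoxia targets and 53.8% for the eIF2alpha kinase list. It was 50% for p53 targets and for glucocorticoid receptor targets. For the remaining lists it ran from 12.5% (eIF2 and eIF2B subunits, mTORC1 genes) to 43.8% (IRE1 and ATF6 branch).

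Of 11 secreted and cell death targets 10 could be tested, FGF21 being too low. With each extract 9 of the 10 were higher and 1 lower (medians 1.24 and 0.78). ADM2, adrenomedullin 2, went from 3.72 ± 0.426 to 17.8 ± 0.932 CPM with WESF (SD, n = 3) and from 4.36 ± 0.372 to 14 ± 0.965 CPM with EESF. The proapoptotic PMAIP1 (NOXA) rose by 1.57 and 0.70 (edgeR adjusted p = 6.38e-14 and 2.95e-06), and its difference between extracts was -0.88 (adjusted p = 8.74e-06), beside -0.89 for DDIT4. BBC3 (PUMA), also proapoptotic, rose 2.82-fold and 2.67-fold (edgeR adjusted p = 0.000113 and 0.000667). Its level was low, with means of 0.548 CPM in vehicle A and 0.439 CPM in vehicle B. The lipoprotein receptor VLDLR rose by 1.44 and 0.89 (edgeR adjusted p = 2.68e-13 and 1.62e-07). The 1 lower gene with both extracts was BCL2L11 (BIM), a proapoptotic gene named here after its values were seen, which fell by 0.24 and 0.86 (edgeR adjusted p = 0.0358 and 1.35e-05).

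Among the paralogues of the regulators the shares called were not far from those of all genes, apart from a larger share lower with EESF. Of 13 paralogues 11 could be tested, CEBPE and NUPR2 being too low, and with WESF 3 were higher, 4 lower and 4 did not pass (median -0.04), while with EESF 3 were higher, 5 lower and 3 did not pass (median -0.13). These were 27.3% higher with each extract, 36.4% lower with WESF and 45.5% lower with EESF. ATF5, a close relative of ATF4, fell by 0.95 with WESF and by 0.26 with EESF on the log2 scale (edgeR adjusted p = 3.80e-10 and 0.00212). The ATF5 mean was 43 CPM in vehicle A, 22.3 CPM in high-dose WESF, 44.7 CPM in vehicle B and 37.5 CPM in high-dose EESF. CEBPG, a partner of ATF4 on CARE elements, rose by 1.05 and 0.68 (edgeR adjusted p = 1.55e-11 and 6.56e-07). DDIT4L, the paralogue of DDIT4, rose by 0.86 and 0.55 (edgeR adjusted p = 1.30e-07 and 0.000159), and JDP2, a relative of ATF3, by 0.65 and 0.40 (adjusted p = 1.53e-05 and 0.00336).

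Of the other branches of the unfolded protein response, HSPA5, ERN1, HSP90B1 and PDIA4 rose with both extracts at the high dose. Of 16 genes of the IRE1 and ATF6 branch, 14 were higher, 1 lower and 1 did not pass with WESF (median 0.43), and 10 were higher, 1 lower and 5 did not pass with EESF (median 0.31). HSPA5, the chaperone BiP, went from 3305 ± 78.9 to 7369 ± 213 CPM with WESF (SD, n = 3) and from 3194 ± 66.6 to 5723 ± 210 CPM with EESF. ERN1, which encodes the sensor IRE1alpha, rose by 1.33 and 0.75 (edgeR adjusted p = 1.13e-11 and 3.34e-06). HSP90B1 rose by 0.88 and 0.73 (edgeR adjusted p = 2.20e-11 and 1.50e-07), and the disulfide isomerase PDIA4 by 0.82 and 0.81 (adjusted p = 3.29e-11 and 1.79e-07). Of 9 mitochondrial chaperones and proteases, 6 were higher and 3 did not pass with WESF (median 0.38), and 7 were higher and 2 did not pass with EESF (median 0.23), led by the protease LONP1 at 0.74 and 0.54 (edgeR adjusted p = 2.32e-09 and 0.000124). The chaperones HSPA9 and TRAP1 rose with both extracts, HSPA9 by 0.60 and 0.28 (edgeR adjusted p = 5.52e-09 and 0.000217) and TRAP1 by 0.38 and 0.51 (adjusted p = 8.22e-07 and 3.58e-05). The protease subunit CLPP stood at 0.11 with WESF (edgeR adjusted p = 0.101) and rose by 0.45 with EESF (adjusted p = 7.23e-05).

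SESN2 and DDIT4 are also known targets of other factors, so the lists for those factors were read beside them. Of 12 p53 targets, 7 were higher, 3 lower and 2 did not pass with WESF (median 0.31), and 4 were higher, 3 lower and 5 did not pass with EESF (median -0.02), shares near those of all genes with EESF. TP53I3, a quinone oxidoreductase, fell by 1.51 and 1.05 (edgeR adjusted p = 7.59e-10 and 6.13e-07), while BTG2, an antiproliferative gene, rose by 1.01 and 1.38 (adjusted p = 0.00106 and 0.000389). BTG2 was at a low level, with means of 0.758 CPM in vehicle A and 0.56 CPM in vehicle B. XPC, a DNA repair gene, rose by 0.57 and 0.39 (edgeR adjusted p = 4.30e-08 and 0.000215), and TP53INP1 stood at -0.22 with WESF (adjusted p = 0.084) and fell by 0.71 with EESF (adjusted p = 0.000522). Of 11 hypoxia targets, 7 were higher, 2 lower and 2 did not pass with WESF (median 0.27), and 3 were higher, 4 lower and 4 did not pass with EESF (median 0.06), led by NDRG1 at 1.74 and 1.16 (edgeR adjusted p = 1.01e-14 and 2.70e-08). VEGFA, which stands in this list and in that of secreted targets, rose by 1.14 and 0.80 (edgeR adjusted p = 8.74e-13 and 1.22e-07). ADM, adrenomedullin, rose by 0.83 and 0.30 (edgeR adjusted p = 4.72e-08 and 0.0315). ANKRD37 stood at 0.15 with WESF (edgeR adjusted p = 0.544) and fell with EESF by 0.46 (adjusted p = 0.0194), from 3.82 to 2.77 CPM in the mean. Of 7 glucocorticoid receptor targets 6 could be tested, and 4 were higher with WESF and 1 with EESF (medians 0.17 and -0.02). That 1 gene was DUSP1, a phosphatase of MAP kinases, at 1.92 and 1.20 (edgeR adjusted p = 6.06e-15 and 9.10e-09). ERRFI1, an inhibitor of the EGF receptor, TSC22D3 (GILZ) and the transcription factor KLF9 rose with WESF by 0.52, 0.22 and 0.13 (edgeR adjusted p = 2.09e-08, 0.00526 and 0.0142) and stood at -0.06, -0.05 and -0.03 with EESF (adjusted p = 0.343, 0.636 and 0.637). The part of these factors in the changes of SESN2 and DDIT4 was not tested.

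In the mTORC1 machinery on which SESN2 and DDIT4 act, the shares called were near those of all genes. Of 16 genes, 6 were higher, 7 lower and 3 did not pass with WESF (median -0.09), and 4 were higher, 6 lower and 6 did not pass with EESF (median -0.01). These were 37.5% higher and 43.8% lower with WESF, and 25% higher and 37.5% lower with EESF. EIF4EBP1, the translation repressor held in check by mTORC1 and a target of ATF4, rose by 0.77 and 0.78 (edgeR adjusted p = 9.78e-10 and 6.45e-06). NPRL2, a subunit of an inhibitor of the pathway, rose by 0.65 and 0.71 (edgeR adjusted p = 1.05e-07 and 4.88e-05), and the GTPase gene RRAGB fell by 0.97 and 0.51 (adjusted p = 9.09e-08 and 0.000289). CASTOR1, an arginine sensor of the pathway at 1.61 CPM in vehicle A, rose by 0.67 and 0.71 (edgeR adjusted p = 0.00803 and 0.0122).

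Across the 24 libraries the regulators moved together to different degrees. The level of each gene was taken on a log2 CPM scale minus the mean of the vehicle of its batch, and Pearson's r was computed for the 45 pairs of regulators as a description, since libraries share groups and batches. It ranged from 0.33 to 0.99 with a median of 0.78. TRIB3 and SESN2 were the closest pair (0.99), and CEBPB was the partner in the lowest pairs, with ATF3 (0.33), CHAC1 (0.38) and SESN2 (0.38). Among 10633 genes with a mean of at least 5 CPM, the genes most like DDIT4 were LIF (0.984), MAFK (0.983), SAT1 (0.983), ERCC5 (0.982) and GOT1 (0.980). Those most like ATF4 were ARF4 (0.979), KDELR3 (0.977), MAGEH1 (0.975), BUB3 (0.973) and MRPL2 (0.972). Those most like DDIT3 were VPS25 (0.971), PTTG1 (0.969), CIB1 (0.964), PDIA5 (0.963) and EIF4EBP1 (0.960). The 3 sets of 5 shared no gene. Every gene of these sets had a positive log2 fold change at both high doses, and most regulators changed little at the lower doses. A high r may therefore largely reflect the high doses, and r was not computed without them.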

How the data were processed

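The deposited table holds expected counts per gene, which the authors made by trimming reads (Trim Galore 0.6.6, checked with FastQC 0.11.9), aligning them to GRCh38 with STAR 2.7.9a and counting with RSEM 1.3.3 on Ensembl release 84, without normalization. The authors' expected counts are not whole where RSEM divides reads between genes (10.9% of values), and they were rounded here. Symbols, positions and lengths come from GENCODE 44, by which 19586 of the 60675 genes are protein-coding. The libraries were made with a directional kit.

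Treated and vehicle libraries of the same batch were compared dose by dose with edgeR 4.0.16 (R 4.3.3), using filterByExpr, TMM scaling, the quasi-likelihood test, 2-sided, and Benjamini-Hochberg adjustment over all protein-coding genes tested. The extracts were compared by an interaction term over 12 libraries. Levels are TMM-scaled CPM. A listed gene was called higher or lower at an adjusted p under 0.05. DESeq2 1.42.0 was an alternative, as were other scaling, filters, depth, a replicate block and leaving out single libraries. The code was tested on simulated data.

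The 10 regulators and the lists around them were chosen with earlier results of these data known, and the lists share genes (VEGFA, SESN1). From each list, up to 4 genes with the largest change among those that passed at either high dose, and every EIF2AK gene, were named. Likeness was ranked by Pearson's r, the top 5 for ATF4, DDIT3 and DDIT4. Over all genes the spread between libraries of a group exceeded sampling noise in every group (chi-square per degree of freedom 2.02 to 15.5), so the 3 libraries per group limit precision, as does depth for genes of low count such as ATF3.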

Additional observations from a re-analysis of the deposited data

Results flagged for a closer look

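For 7 regulators the change with high-dose EESF differed from the change with high-dose WESF by a test of the difference itself, the interaction term of edgeR over 12 libraries. On the log2 scale the EESF change minus the WESF change was -0.89 for DDIT4, -0.74 for ATF3, -0.62 for CHAC1, -0.55 for SESN2, -0.42 for TRIB3, -0.22 for ATF4 and 0.35 for CEBPB. The ATF4 call was lost under 9 of 19 alternatives and the CEBPB call under 2. With single libraries left out, the count of regulators that differed ranged from 5 to 7. The direction was shared by every pair of high-dose libraries in DDIT4, ATF3, CHAC1, SESN2, TRIB3, ATF4 and CEBPB, in that each EESF library lay on one side of each WESF library. The extract, the dose (500 against 310 µg/mL), the cytotoxicity stated for the EESF dose and the batch cannot be told apart.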

How the results depend on the processing

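The counts of regulators called at the high doses stayed within 1.5 times of those reported under all alternatives run, and all 80 group levels moved by less than their SD with DESeq2 size factors. The count of DEGs with high-dose WESF ranged from 6 to 7 with single libraries left out, and that of regulators past the fold rule in the difference between extracts from 2 to 4. At 100 µg/mL WESF the count with an adjusted p under 0.05 went from 0 to 1 without the filter on low counts and ranged from 0 to 2 with single libraries left out. At 62 µg/mL EESF the count of DEGs went from 0 to 1 with libraries thinned to the smallest total and ranged from 0 to 1 with single libraries left out. At 12.4 µg/mL EESF the count with an adjusted p under 0.05 ranged from 1 to 2. The NUPR1 difference between extracts turned from 0.09 to -0.05 without vehicle B replicate 3 (range -0.05 to 0.17 with single libraries left out), and it passed the test in no case. The ATF4 difference had an adjusted p between 0.0129 and 0.0972 over 19 alternatives, being lost with thinned libraries (0.06), with a replicate block and without any 1 of 7 libraries (vehicle A replicate 2 or 3, high-dose WESF replicate 1 or 3, vehicle B replicate 1 or 2, high-dose EESF replicate 2). The cause of these changes was not tested.

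Replicate numbers are shared between groups, but same-numbered libraries did not consistently deviate together (correlations from -0.477 to 0.219 over the 6 comparisons with a vehicle), and not every library correlated best with its own number. Between high-dose and medium-dose EESF the same-numbered correlations were all positive (0.0978 to 0.191). Between high-dose and low-dose EESF they were all negative (-0.183 to -0.101). With 3 libraries per group this check cannot exclude pairing. With the replicate number as a block, the count of regulators that differed between extracts at the high dose went from 7 to 6, the ATF4 difference of -0.22 having an adjusted p of 0.0972, and the other counts of calls were equal to those reported.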
